A study of Mus musculus with 31 samples.

Results

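The Trim71 cross-linking immunoprecipitation and sequencing (CLIP-seq) of mouse embryonic stem cells (mESCs) gave 498 peaks, and 210 of them (42.2%) carry the deposited location 3'UTR, CDS, or 5'UTR. These 210 peaks, the ones placed in mature mRNA rather than in introns or between genes, were taken by that location alone, without regard to their reads. They lie in 169 host genes, of which 151 are protein-coding. The CLIP-seq compared 2 immunoprecipitated samples with 1 input of matched size, all from FLAG-Trim71 mESCs, which are ES-E14TG2a cells with a FLAG-tag knocked in at the N-terminus of both *Trim71* alleles, and used the FLAG M2 antibody. The file holds 1 read count per peak, so there is no replicate error behind the reads of a peak, and the file does not name the libraries behind that count. The level of the bound genes was read from 12 RNA-seq libraries of ES-E14TG2a mESCs, kept in medium with 2i and Lif. They comprise 2 WT libraries, 2 of CLIPΔ mESCs, in which the Trim71-binding region in the *Ago2* 3'UTR was deleted on both alleles, 4 of *Ago2* KO mESCs, and 4 of mESCs with both changes (*Ago2* KO/CLIPΔ). The edited lines came from single sorted cells, and the labels do not say which clone gave which library. The study uses WT as its name for the FLAG-Trim71 mESCs and lists its edited lines as made from them, so the tag is shared by the groups, although the labels of the RNA-seq do not mention it.

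Trim71 (also called Lin41) is an RNA-binding protein of the TRIM-NHL family, highly expressed in embryonic stem cells and a classic target of the let-7 miRNAs. TRIM-NHL proteins contact RNA through the NHL domain, and in several animals they repress bound mRNAs through the 3'UTR, by blocking translation or by lowering the mRNA. UV light links a protein to the RNA it touches, so a CLIP peak marks a stretch of RNA close to the protein in the cell.

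The sequences around the peaks of the mRNAs described most below are shown so that the bound stretches can be compared. Each is 30 nt around the middle of the peak, read from the mouse genome (mm10, GRCm38) on the strand of the gene, 5′ to 3′, with the bases from the deposited start to the deposited end in capitals. The file does not say whether its starts count from 0 or from 1, so the first capital can be off by 1 base. The first set holds 3'UTR peaks of *Ago2*, the argonaute whose mRNA was edited in CLIPΔ, and of *Cdkn1a*, *Topbp1*, and *Fgf4*, which had 2 peaks, the most reads of any mRNA peak, and 2 strong peaks.
Ago2, chr15:73103527-73103556, minus strand: agtgaggagactgCTAGCtccgtgctgtct
Cdkn1a upstream, chr17:29099595-29099624, plus strand: aaacaaaacaaacCTAAattagtaggacgg
Cdkn1a downstream, chr17:29100534-29100563, plus strand: ccctgtttctgtAACATCctggtctggact
Topbp1, chr9:103350268-103350297, plus strand: AACCTCTTTAACAGCCTGAGCAGAGAGTTT
Fgf4 upstream, chr7:144864652-144864681, plus strand: tgctatgtcaCTAAAGATGaccttgaattt
Fgf4 downstream, chr7:144865061-144865090, plus strand: TCTGCTCTGTATCTGCCACTGTTACCGAGT

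The next set holds peaks of genes of DNA demethylation and of Polycomb, and of the 4 bound genes that were lower in CLIPΔ mESCs.
Tet1 upstream, chr10:62810417-62810446, minus strand: tcagttgaaTACACCAATGTTgatgaatgg
Tet1 downstream, chr10:62807199-62807228, minus strand: tactgcagaaaggaCCaaggatgtgtatgc
Tet2 CDS, chr3:133473640-133473669, minus strand: ctcatttgcaaaaCCTGGctactgtcattg
Suz12, chr11:80033387-80033416, plus strand: TAAGCTTTCTCATGGTGTCTTCAGAGATTT
Manba, chr3:135570787-135570816, plus strand: ccactgtaggTGAAGTGTGTggctaggatt
Hook1, chr4:96023067-96023096, plus strand: agtgactttgtctGTAAaagtgactcatta
Cdk6, chr5:3409328-3409357, plus strand: tgttggggagcctACATggggactgagctg
Klf4, chr4:55527805-55527834, minus strand: caataccaaatccaACTtgaacatgcccgg

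The last set holds the highest CDS peak, in *Lrrk2*, and the CDS peak of *Pabpc1*.
Lrrk2 CDS, chr15:91774928-91774957, plus strand: ctcactattccAATATCCcagattgctccg
Pabpc1 CDS, chr15:36600953-36600982, minus strand: agctcaaTGGAAAACAGATTTATGttggac

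Of the 210 peaks, 154 were in 3'UTRs, or 73.3% (Wilson 95% interval, 66.97% to 78.86%). The CDS and the 5'UTR held 28 peaks each, or 13.3% (9.39% to 18.6%). The location did not always mean the mature mRNA of a protein-coding gene. When the peaks were laid over the GENCODE M21 annotation, 169 were on a protein-coding host outside any small RNA gene, 30 overlapped a small RNA gene on the same strand, and 11 were on other noncoding transcripts. All 28 CDS peaks were on protein-coding mRNA, as were 134 of the 154 3'UTR peaks, but only 7 of the 28 5'UTR peaks. The other 5'UTR peaks comprised 16 over small RNA genes and 5 on noncoding transcripts. The centre of the peak fell into the deposited part of a GENCODE transcript in 128 of the 134 3'UTR, 27 of the 28 CDS, and 4 of the 7 5'UTR mRNA peaks.

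The small RNA genes took a large part of the reads. The 210 peaks held 685194 reads, 26.5% of the reads in all peaks. The 30 peaks over small RNA genes held 41.3% of these reads, the 169 mRNA peaks 54.9%, and the 11 others 3.72%. Among the 10 peaks with the most reads, which held 33.2% of the total, 8 were over small RNA genes. The median was 4958.5 reads per peak over small RNA genes (481 to 57974) and 1781 per mRNA peak (3 to 14595). Peaks over small RNA genes were also wider, with a median of 30 nt (end minus start) against 4 nt for mRNA peaks.

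snoRNAs, which guide the modification of rRNA and are mostly cut out of introns of their host genes, accounted for 21 of the 30. The highest peaks of the 3'UTR location lay over *Snord83b* (57974 reads) and *Snord43* (33786 reads), both within the *Rpl3* gene. In the 5'UTR location the highest was over *Snord2* in *Eif4a2*, with 33014 reads, and *Gas5*, a noncoding snoRNA host, had peaks of 17747 and 12797 reads. The noncoding host *2410006H16Rik* had 5 peaks, and 4 of them were over *Snord49b*, *Snord49a*, and *Snord65*. The others of the 30 were over 2 snRNAs (*Rnu11* and *Rnu5g*), 2 copies of 5S rRNA, 2 7S RNAs (*Rn7s1*, with 21149 reads, and *Rn7s2*), and 3 miRNA genes, *Mirlet7i* among them. Repeated genes such as 5S and 7S RNA have near-identical copies, so the copy behind such reads is uncertain. *Malat1*, a nuclear lncRNA, had 5 peaks of 593 to 2442 reads, which carry the location 3'UTR although the transcript is noncoding.

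**Figure D1:**
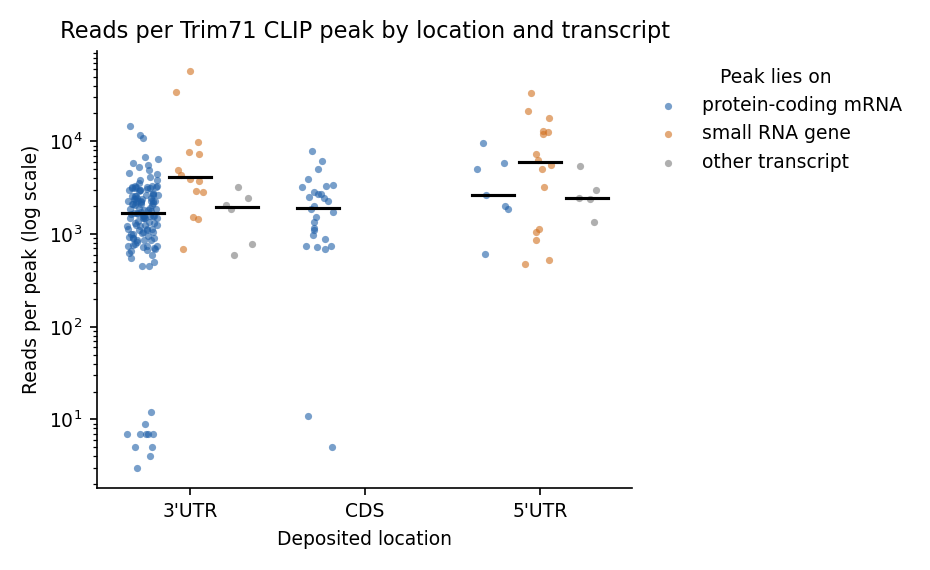
Reads per peak (log scale) for the 210 peaks by deposited location, each point a peak, split into peaks on protein-coding mRNA, over small RNA genes, and on other transcripts, with black bars at the medians. The 13 points between 3 and 12 reads stand apart from all others, which start at 449 reads, and the highest points are over small RNA genes.

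On mRNA, the 3 locations had medians of 1674.5 (3'UTR, n = 134), 1931.5 (CDS, n = 28), and 2672 reads (5'UTR, n = 7). The highest mRNA peak was in the 3'UTR of *Topbp1*, a scaffold of the DNA damage checkpoint, with 14595 reads over 51 nt. The 3'UTR of *Fgf4*, the growth factor that mESCs secrete to drive their own exit from pluripotency, followed with 11845 reads. *Tsc22d1*, a leucine zipper transcription regulator, had 10746 reads. The highest CDS peaks were in *Lrrk2*, a kinase, with 7856 reads, *Pcif1*, the cap-adjacent m6A methyltransferase, with 6083 (a peak that GENCODE places in the 3'UTR), and *Pabpc1*, the cytoplasmic poly(A)-binding protein, with 5094. *Ppp1r15b*, a subunit of the eIF2α phosphatase, had 3897 reads, and *Atp5a1*, a subunit of the ATP synthase, 3425. The single *Ago2* peak had 2616 reads, and the *Cdkn1a* peaks had 709 and 1549.

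Reads per peak had a gap. Of the 210 peaks, 13 (11 in 3'UTRs and 2 in the CDS) had 3 to 12 reads, and the next peak had 449. Of these 13, 9 lay 25 to 47 nt from a peak of the same gene that held 457 to 5907 reads, as in *Slc2a1*, the glucose transporter, where a peak of 7 reads was 46 nt from one of 5907. The other 4, in *Klf4*, *Uba3*, *Slc25a32*, and *Plxna1*, were the only peaks of their gene. *Klf4*, one of the core transcription factors of naive pluripotency, thus counts as bound on a peak of 7 reads and 2 nt.

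Most genes had a single peak. Of the 169 genes, 138 had 1 peak, 25 had 2, 4 had 3, and 2 had 5. *Nufip2* had a 3'UTR peak of 2624 reads and a pair in the CDS of 2261 and 1160 reads. By the deposited location, it was the only gene with mRNA peaks in more than 1 location, but GENCODE places its 3'UTR peak outside the exons of the gene. *Slc37a3*, a sugar-phosphate transporter family member, had 3 peaks, of 1910, 7, and 2417 reads. *Hspa9*, the mitochondrial Hsp70, had 3 peaks of 1106 to 1311 reads. Of the 41 distances between neighbouring peaks of a gene, 21 were at most 60 nt and 10 were between 26 and 35 nt. Peaks so close had similar reads in *Azin1* (918 and 1256 reads, 27 nt apart) and *Brpf1* (1660 and 1797, 29 nt). Whether such pairs are separate binding sites was not tested. Only 6 of the 169 genes also had an intron peak, namely *2410006H16Rik*, *Atp5b*, *Gas5*, *Rabggtb*, *Snhg1*, and *Zfas1*. All 6 had a mature peak over a small RNA gene, and only *Atp5b* among them also had a peak on its mRNA.

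On annotated transcripts, peaks in 3'UTRs lay towards the stop codon. Positions were read on the longest annotated transcript that places the peak in its deposited location. The 3' ends in use in these cells were not examined. For the 128 peaks placed in a 3'UTR of the annotation, the median distance from the stop codon was 663 nt (42 to 7290 nt) and that to the transcript end was 1311.5 nt. With the 3'UTR cut into 4 equal parts, the first held 49 of them, the second 38, the third 19, and the last 22, and 1 peak was within 50 nt of the transcript end. The 3'UTR of these transcripts had a median length of 2349.5 nt, whereas the 10855 genes of the RNA-seq test with a 3'UTR had a median of 1040 nt. The 27 CDS peaks were spread over the coding sequence, with 7, 5, 8, and 7 in 4 equal parts from its start to its end.

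**Figure D2:**
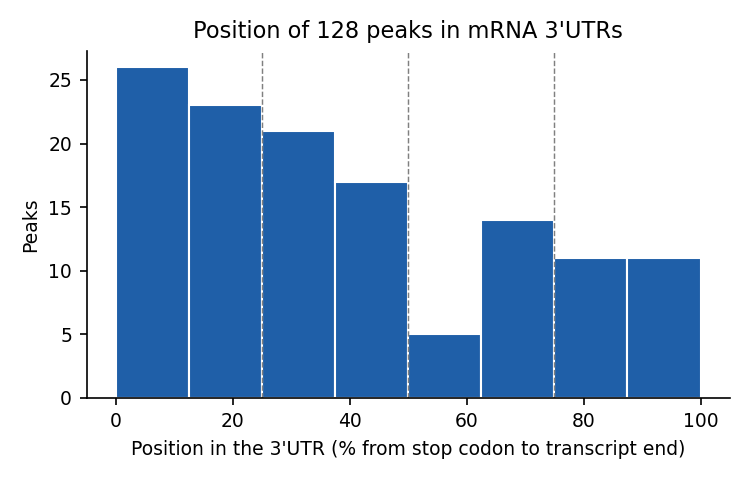
Number of peaks by position in the 3'UTR, from the stop codon (0%) to the annotated transcript end (100%), for the 128 mRNA peaks whose centre is in an annotated 3'UTR. The 4 equal parts, separated by dashed lines, hold 49, 38, 19, and 22 peaks from left to right.

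The 50 nt around the 134 3'UTR mRNA peaks had a median GC content of 38% (quartiles, 34% and 46%), and 50-nt tiles of the 3'UTRs of the same genes had 40%. Their predicted folding energy was -6.55 kcal/mol (median), against -6.9 in the tiles. The CDS windows had 44% GC against 48% in the tiles of those coding sequences, and the 7 5'UTR windows 50% against 65%. The windows were cut from the genome and the tiles from spliced transcripts, and 157 of the 169 mRNA windows lay wholly in 1 exon. The part of sequence outside exons in these differences was not tested. Short letter patterns were counted on the sense strand of the same windows. The Pumilio-type pattern TGTANATA was in 6 of the 134 windows (4.48%) and in 1.37% of the tiles, and the 6 were in *Npepps*, *Mtdh*, *Slc38a2*, *Cdkn1b*, *Gm17067*, and *Npat*. The poly(A) signal AATAAA was in 6 windows (4.48%, tiles 3.66%), the AU-rich core ATTTA in 14 (10.4%, tiles 9.54%), and a run TTTTT in 17 (12.7%, tiles 14.6%). The let-7 seed match CTACCTC was in none of the windows and in 0.225% of the tiles. These shares are descriptions, and a match is not a site.

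The mRNA peaks were not evenly split between the DNA strands. Of the 25 genes with a CDS peak, 20 were on the plus strand (80.0%, Wilson 95% interval 60.9% to 91.1%). For the 110 genes with a 3'UTR mRNA peak it was 66 (60%, 50.7% to 68.7%), and for the 6 with a 5'UTR mRNA peak it was 5. Of the 11212 genes of the RNA-seq test with an annotated strand, 50.3% were on the plus strand. Across all peaks, 142 of the 226 intron peaks outside small RNA genes (62.8%) were also on the plus strand. Peaks over small RNA genes were on the plus strand in 16 of 16 with the location 5'UTR and in 1 of 14 with the location 3'UTR. For these peaks the deposited location thus went with the DNA strand. Whether the peak calling or the annotation plays a part in these splits was not tested.

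The RNA-seq table holds 15034 genes, all above 0 in every library, and 151 of the 169 bound genes are among them. Of the 18 others, 15 are noncoding. TPM, a level per transcript length that sums to a constant over a library before any filter, was computed by the authors on the longest transcript. The libraries carried mESC markers, with 9 of 10 markers in the table and a summed level of 11550 to 15043 TPM per library, while 10 markers of other lineages summed to 127 to 147 TPM in WT, 147 to 156 in CLIPΔ, 104 to 140 in *Ago2* KO, and 73.4 to 95.7 in *Ago2* KO/CLIPΔ mESCs. The part of these differences in the comparisons below was not tested. The median WT level of the bound genes was 60.02 TPM (quartiles, 18.9 and 178), and that of all genes of the table was 8.06 TPM. Of the 151 genes, 133 (88.1%) were above the median of the table and 96 (63.6%) were above its upper quartile. Genes with a 3'UTR mRNA peak had a median of 47.5 TPM (n = 107) and genes with a CDS peak 61.2 TPM (n = 25). In contrast, the 176 genes of the table with an intron peak outside small RNA genes had a median of 1.56 TPM. The part of RNA abundance in where peaks were called was not tested.

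**Figure D3:**
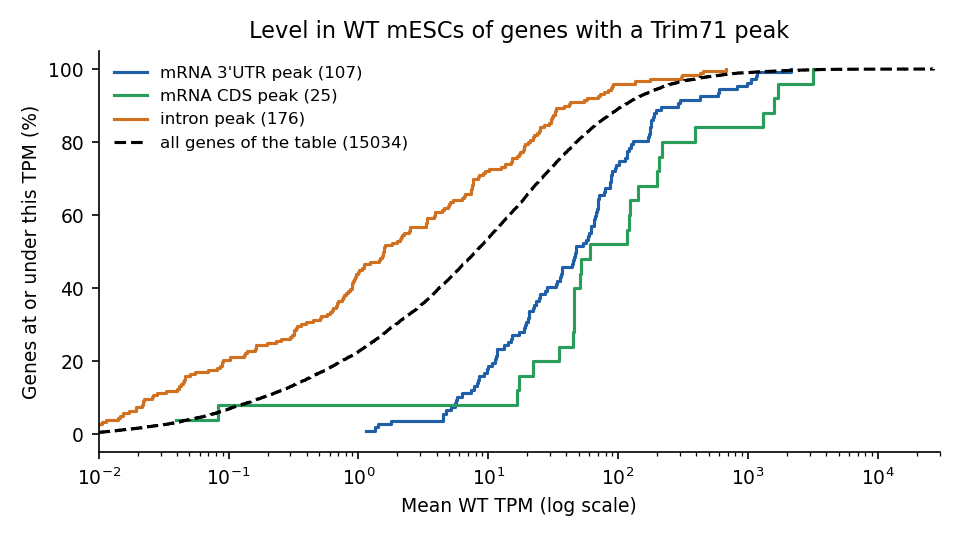
Cumulative share of genes (%) by mean WT level (TPM, log scale, mean of 2 libraries) for genes with an mRNA peak in the 3'UTR, an mRNA peak in the CDS, or an intron peak, and for all genes of the table (dashed). The curves of 3'UTR and CDS genes lie right of the dashed curve for most of the range (medians 47.5, 61.2, and 8.06 TPM), and that of intron genes lies left of it (median 1.56 TPM).

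Reads and level did not go together among bound mRNAs. Over 137 genes, log10 of the reads in mRNA peaks and log2 of the WT TPM plus 1 had a Pearson correlation of 0.03 and a Spearman correlation of 0.13, given as a description across genes, which are not independent replicates. The highest CDS peak was in the gene with the lowest level, *Lrrk2*, at 0.0414 and 0.0379 TPM in WT and at most 0.0323 in every other library. *Thsd7b*, at 0.0823 TPM, had a CDS peak of 881 reads. At the other end, *Atp5b* at 3180 TPM had 2484 reads and *Hnrnpa2b1* at 2131 TPM had 1881. These genes, except *Lrrk2*, were picked after their values were seen.

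By function, assigned by hand from general knowledge after the list of genes was known, the 151 protein-coding genes were spread widely. Signalling, adhesion, and survival had 20 genes, membrane and microtubule traffic 17, metabolism and mitochondria 14, transcription factors 14, RNA binding and processing 13, ribosome and translation 12, and chromatin and DNA modification 10. Solute carriers and ion transport had 10, the ubiquitin system 9, protein folding 8, and the cell cycle and DNA repair 7, while 17 genes were left in no group. Of 23 tested pluripotency factors, 5 had a peak: *Fgf4*, *Klf4*, the nuclear receptor *Nr5a2*, the Notch effector *Rbpj*, and the naive factor *Tfcp2l1*. *Nanog*, the homeobox factor of the naive state, and *Trim71* itself had no peak among the 498 analysed here. Of 26 genes of Polycomb and DNA demethylation, *Suz12*, *Tet1*, *Tet2*, *Hells*, and *Yy1* had a peak. Of 22 cell cycle and p53 genes, 7 did, among them the Cdk inhibitors *Cdkn1a* and *Cdkn1b*. Of the 11287 genes of the RNA-seq test, 147 were bound. The lists were chosen with earlier results of these data known. Their counts therefore cannot show whether Trim71 binds these functions more often than others, and this was not tested.

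The *Ago2* mRNA was first read in every library to check the genotypes. It had 28.2 and 21.6 TPM in WT, 27.3 and 20.3 in CLIPΔ, 1.67, 1.85, 1.97, and 2.29 in *Ago2* KO, and 1.51, 1.72, 2.88, and 2.60 in *Ago2* KO/CLIPΔ mESCs. The groups with and without *Ago2* do not overlap. CLIPΔ and WT differed by -0.06 ± 0.22 (log2 of TPM + 1, SE; adjusted p = 0.949). The deletion removed the bound region, and the level of the bound mRNA did not pass the test in either direction. The TPM of *Trim71* was 34.9 and 34.9 in WT, 27.1 and 27.6 in CLIPΔ, and 22.5 to 28.5 in the libraries without *Ago2*, where it was lower in *Ago2* KO than in WT (-0.45 ± 0.10, adjusted p = 0.00336).

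The comparisons between genotypes ask how the mRNAs that Trim71 binds stood when a single one of its bound regions was removed, with and without *Ago2*. Differences are on the scale log2(TPM + 1), which understates the changes of low genes, and were tested with limma over the 11287 genes whose mean reached 1 TPM (adjusted p below 0.05). Of the bound genes, 147 passed this filter, and *Lrrk2*, *Thsd7b*, *Kif5c*, and *Wdr44* did not. In CLIPΔ against WT mESCs, 4 of the 147 bound genes were called (2.72%), all of them lower. Among all genes, 2.27% were called, 0.806% lower and 1.46% higher. The share called was close to that of all genes in total, but all of the few calls in bound genes were in the lower direction, and this difference in direction was not tested. The median difference was -0.07 over the bound genes and -0.05 over all genes.

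The 4 were *Manba*, the lysosomal β-mannosidase, *Hook1*, a dynein cargo adaptor, *Cdk6*, a G1 cyclin-dependent kinase, and *Klf4*. *Manba* had 31.9 and 22.7 TPM in WT and 15.5 and 13.9 in CLIPΔ (-0.84 ± 0.15, adjusted p = 0.0119). *Hook1* had 13.4 and 10.2 in WT and 6.05 and 6.26 in CLIPΔ (-0.83 ± 0.16, adjusted p = 0.0195). *Cdk6* had 4.67 and 4.29 in WT and 2.34 and 2.86 in CLIPΔ (-0.61 ± 0.12, adjusted p = 0.0264). GENCODE places the only *Cdk6* peak outside the exons of the gene, although its deposited location is 3'UTR. In all 3 genes both CLIPΔ libraries were under both WT libraries. *Klf4*, whose only peak had 7 reads, had 1246 and 1076 TPM in WT and 825 and 731 in CLIPΔ (-0.57 ± 0.11, adjusted p = 0.0183). With the WT and CLIPΔ libraries alone, none of the bound genes was called. With the replicate number as a block in these 4 libraries, 3 of 148 were called, among them *Manba* (adjusted p = 0.0406) and *Klf4* (adjusted p = 0.0456), but not *Hook1* (adjusted p = 0.0516) or *Cdk6* (adjusted p = 0.0889). Without WT replicate 1, only 1 of the bound genes was called, and without CLIPΔ replicate 1, 2 were. These counts show how far the 4 calls held and were not set against the calls over all genes.

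In *Ago2* KO/CLIPΔ against *Ago2* KO mESCs, none of the 147 bound genes was called by limma, and 0.877% of all genes were. The unadjusted p was below 0.05 for 13 of the 147 bound genes and for 1243 of all 11287 genes. *Manba* had 24.1 to 27.6 TPM in *Ago2* KO and 21.0 to 23.8 in *Ago2* KO/CLIPΔ, a difference of -0.19 (adjusted p = 0.557). *Cdk6* had 1.99 to 2.42 and 2.01 to 2.28 TPM, a difference of -0.01 (adjusted p = 0.988). *Hook1* differed by -0.37 (adjusted p = 0.192) and *Klf4* by -0.24 (adjusted p = 0.228). The test of the interaction called none of the bound genes and 0.647% of all genes. Its unadjusted p was below 0.05 for 8 of the 147 bound genes and for 904 of all 11287 genes. No bound gene was thus shown to respond to the deletion differently with and without *Ago2*.

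In the cells without *Ago2*, CLIPΔ and unedited 3'UTR libraries with the same replicate number deviated together, so the comparison was also made with the replicate number as a block in these 8 libraries alone. It called 9 of 146 bound genes, 6 lower and 3 higher in *Ago2* KO/CLIPΔ. This was a smaller share than among all genes, of which 7.34% were called, so the calls are not particular to bound genes. The 9 are named here after their values were seen. Lower were *Hsph1* (-0.37 ± 0.06, adjusted p = 0.0153) and *Hspa8* (-0.29 ± 0.05, adjusted p = 0.0167), both cytosolic chaperones, *Hmox1*, the heme oxygenase, *Yy1*, *Eef1e1*, and *Rtn4*. *Wdr45*, an autophagy protein, was higher (0.31 ± 0.04, adjusted p = 0.0106), as were *Sumf1* and *Rpl13a*. None of the 4 genes called in CLIPΔ against WT was among them.

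In *Ago2* KO against WT mESCs, most bound genes were lower. Of the 147, 114 were called (77.6%, all genes 56.4%), 103 of them lower (70.1%, all genes 42.4%) and 11 higher (7.48%, all genes 14.0%). The 4 *Ago2* KO libraries were all under both WT libraries for 112 of the 147 genes (76.2%, all genes 50.2%). The whole table was shifted, with a median over all genes of -0.26, and the bound genes had a median of -0.58, or -0.32 relative to all genes. When each library was centred on its median, 64 of the 147 bound genes were lower and 22 higher, whereas 2371 of all 11287 genes were lower and 3559 higher. By location, 78 of 105 genes with a 3'UTR mRNA peak were lower and 2 higher, and of the 23 with a CDS peak, 13 were lower and 5 higher. The median was -0.61 for the 3'UTR and -0.41 for the CDS genes, a difference that was not tested. The WT libraries are shared with the CLIPΔ comparison. In bulk RNA, fewer cells with a transcript and less of it per cell cannot be told apart.

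The bound genes of chromatin and DNA modification, a group set by hand with the gene list known, were lower in 10 of 10 tested, with a median of -1.16, where 42.4% of all genes and 70.1% of the bound genes were lower. *Tet1*, a 5-methylcytosine dioxygenase, had 74.97 and 56.0 TPM in WT and 23.2, 23.1, 20.1, and 21.4 in *Ago2* KO (-1.52 ± 0.22, adjusted p = 0.000224). *Suz12*, a core subunit of Polycomb repressive complex 2, had 69.1 and 50.9 in WT and 26.5, 26.4, 22.9, and 22.5 in *Ago2* KO (-1.24 ± 0.20, adjusted p = 0.000427). The *Ago2* KO values of both genes were under every WT value, with no overlap. *Hells* and *Tet2* were lower by 1.14 and 0.98 on the log2 scale. Over the whole list of 26 Polycomb and demethylation genes, bound or not, 14 were lower and 2 higher, and the 14 include 4 of the 5 bound members. Over the list of 19 chromatin remodelling genes, bound or not, 15 were lower and 1 higher, and the 15 include all 3 bound members.

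The bound cell cycle and DNA repair genes, set in the same way, were lower in 7 of 7, where 42.4% of all genes and 70.1% of the bound genes were lower. Over the list of 22 cell cycle and p53 genes, bound or not, 10 were lower and 3 higher, and the 10 include all 7 bound members of the list. *Cdkn1a*, the p21 inhibitor of Cdks and a p53 target, had 471 and 387 TPM in WT, 624 and 433 in CLIPΔ, 223, 226, 251, and 255 in *Ago2* KO, and 251 to 273 in *Ago2* KO/CLIPΔ mESCs. It was lower in *Ago2* KO (-0.84 ± 0.13, adjusted p = 0.000438) and was not called in CLIPΔ (0.28 ± 0.16, adjusted p = 0.496). *Topbp1*, with the highest mRNA peak, fell from 70.7 and 62.4 to between 31.0 and 35.4 TPM (-0.97 ± 0.15, adjusted p = 0.000372). The bound ubiquitin genes were lower in 8 of 9 (all bound genes, 70.1%, all genes, 42.4%), and *Mkrn1*, a RING ligase, was higher (0.37 ± 0.13, adjusted p = 0.0358). Over the list of 18 ubiquitin genes, bound or not, 14 were lower and 1 higher, and the 14 include 6 of the 7 bound members.

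Of the bound RNA binding and processing genes, 11 of 13 were lower (all bound genes, 70.1%, all genes, 42.4%) and 1 was higher. Over the list of 22 RNA-binding and splicing genes, bound or not, 15 were lower and 0 higher, and the 15 include all 5 bound members. Over the list of 18 argonaute and silencing genes, 14 were lower and 1 higher, and the 14 include the 2 bound members. *Hnrnpa2b1*, a nuclear splicing and RNA export factor, had 2366 and 1896 TPM in WT and 692 to 871 in *Ago2* KO (-1.45 ± 0.12, adjusted p = 1.89e-05). *Nufip2* differed by -0.74 (adjusted p = 0.00332). *Pcif1* was higher, with 38.7 and 62.5 TPM in WT and 64.2 to 81.5 in *Ago2* KO (0.56 ± 0.20, adjusted p = 0.0300), but it was not called without WT replicate 1 (0.22, adjusted p = 0.417). *Malat1*, the bound lncRNA, had 959 and 369 TPM in WT and 62.9 to 88.1 in *Ago2* KO (-2.97 ± 0.46, adjusted p = 0.000381), the largest difference of a bound gene after *Ago2*. The snoRNA hosts *Snhg1* (-1.96) and *Eif4a2* (-1.81), both with peaks over the snoRNA, came next.

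Translation and folding genes went both ways, whereas the calls among bound transport genes were all lower. The bound ribosome and translation genes had 5 lower and 3 higher of 12 (all genes, 42.4% lower and 14.0% higher). Over the list of 24 genes of translation factors and the ribosome, bound or not, 13 were lower and 3 higher. The bound protein folding genes had 4 lower and 1 higher of 8. For solute carriers and ion transport it was 5 lower and 0 higher of 9. *Rpl13* rose from 1966 and 1749 TPM to 2562 to 2860 (0.55 ± 0.10, adjusted p = 0.000657), and *Rpl13a* differed by 0.60 (adjusted p = 0.00355), both with peaks over snoRNAs. *Pih1d1*, a subunit of the R2TP assembly chaperone, showed the largest rise, from 59.8 and 70.0 TPM in WT to between 120 and 126 in *Ago2* KO (0.92 ± 0.09, adjusted p = 4.82e-05). *Maf1*, the repressor of RNA polymerase III, was higher too (0.58 ± 0.15, adjusted p = 0.00704). *Hspa9* was lower (-0.40, adjusted p = 0.0129). *Slc37a3*, with its 3 peaks, had 21.1 and 23.7 TPM in WT and 19.8 to 21.8 in *Ago2* KO (-0.10 ± 0.13, adjusted p = 0.539), and its values overlap. *Rpl3*, whose gene held the peaks with the most reads, was at 1137 and 1115 TPM in WT and at 1078 to 1178 in *Ago2* KO (0.02 ± 0.13, adjusted p = 0.894).

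Of the bound genes of sterol and fatty acid synthesis, *Hmgcs1*, the HMG-CoA synthase of the cytosol, had 256 and 120 TPM in WT and 64.0 to 70.4 in *Ago2* KO (-1.36 ± 0.30, adjusted p = 0.00241), and its WT replicates stood far apart. *Scd2*, a fatty acid desaturase, was lower too (-0.86, adjusted p = 0.000158). Of the 5 bound pluripotency factors, *Klf4* (-0.54) and *Nr5a2* (-0.90) were lower, whereas *Tfcp2l1* (-0.47, adjusted p = 0.0577), *Rbpj* (-0.34, adjusted p = 0.0914), and *Fgf4* (-0.12, adjusted p = 0.504) were not called. *Fgf4*, with 2 of the stronger 3'UTR peaks, had 729 and 466 TPM in WT and 503 to 580 in *Ago2* KO, inside the WT range.

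**Figure D4:**
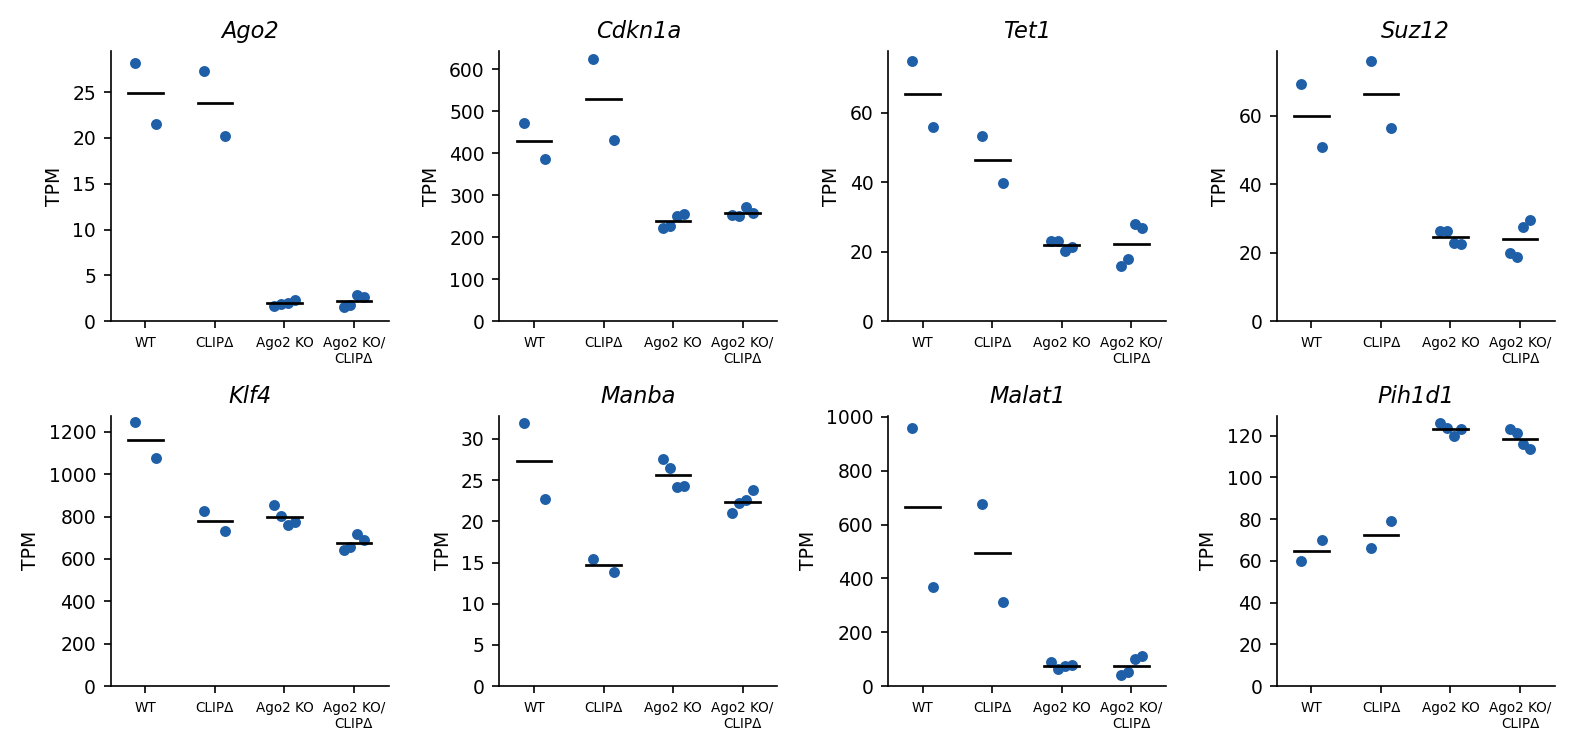
Level (TPM, axes from 0) of 8 bound genes in each of the 12 RNA-seq libraries, each point a library in replicate order and each bar the mean of a genotype. *Ago2* separates the libraries with from those without *Ago2* and not CLIPΔ from WT, *Klf4* and *Manba* are lower in CLIPΔ than in WT, *Cdkn1a*, *Tet1*, *Suz12*, and *Malat1* are lower in both genotypes without *Ago2*, and *Pih1d1* is higher there.

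The difference between *Ago2* KO and WT moved with the length of the 3'UTR in all genes. When the tested genes were split into 4 equal groups by the 3'UTR length of their longest coding transcript, the genes without a mature peak had medians of -0.01, -0.13, -0.30, and -0.47 from the shortest to the longest 3'UTRs, and the bound genes had 0.26, -0.40, -0.64, and -0.74 (n = 15, 27, 34, and 68). In the group with the longest 3'UTRs, 79.4% of the bound genes and 60.6% of the others were lower. The WT replicates also differed with 3'UTR length, in the sense that longer 3'UTRs were higher in replicate 1. WT replicate 1 minus replicate 2 had medians of -0.12, -0.06, 0.06, and 0.15 in the genes without a peak and of 0.16, 0.14, 0.32, and 0.37 in the bound genes. Over all lengths, the median was 0.28 in the bound and 0.02 in the other genes. Of the 147 bound genes, 118 (80.3%) were higher in WT replicate 1 than in replicate 2, and of the other genes 51.5%. In the *Ago2* KO/CLIPΔ mESCs, replicates 3 and 4 minus replicates 1 and 2 gave a median of 0.26 in the bound genes and 0.12 in the others, and in CLIPΔ replicate 1 minus replicate 2 it was 0.22 and 0.01. Between *Ago2* KO and WT it was -0.58 and -0.25. The bound genes as a set thus also differed from the others between libraries of 1 genotype. The part of this library difference in the comparison of the genotypes was not tested. Without WT replicate 1, 77 bound genes were lower and 7 higher in *Ago2* KO, with a median of -0.48, and 37.0% of all genes were called in either direction. Without WT replicate 2, 107 were lower and 9 higher, with a median of -0.74, and 57.4% of all genes were called.

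**Figure D5:**
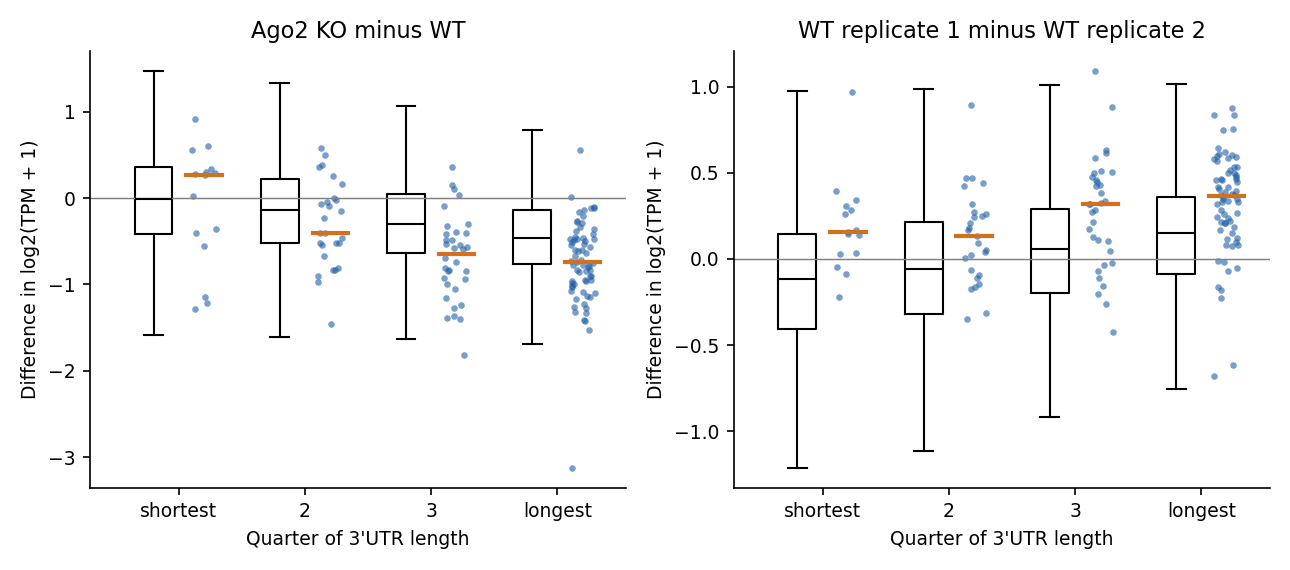
Difference in log2(TPM + 1) between *Ago2* KO and WT means (left) and between WT replicates 1 and 2 (right) by 4 equal groups of 3'UTR length, for the genes without a mature peak (boxes: quartiles and median, whiskers to 1.5 times the interquartile range, no outliers drawn) and for each bound gene (blue points, orange median). From the shortest to the longest 3'UTRs, bound medians run from 0.26 to -0.74 on the left and from 0.16 to 0.37 on the right.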

How the data were processed

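For the CLIP-seq, the authors used Bowtie to discard reads of rRNA, tRNA, and mitochondria, then mapped to mm10 with STAR, called peaks over the input with CLIPper, and annotated them to RefSeq mRNAs. The deposited unit is the read count per peak. For RNA-seq, the authors mapped to mm10 with HISAT2 2.1.0, used HTSeq for the reads on each gene's longest transcript, and deposited TPM, with replicates not pooled. TPM hides the depth, which is unknown. Strand use in counting is not given in the sources used here.

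Peaks were placed on GENCODE M21. A peak overlapping a small RNA gene on its strand was assigned to it. Windows of 50 nt were folded with RNAfold 2.7.2. Wilson intervals (95%) cover counting error only. The CLIPΔ columns carry a code, read as CLIPΔ by elimination.

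TPM were tested as log2(TPM + 1) with limma (lmFit and eBayes with trend, Benjamini-Hochberg adjustment over all genes, threshold 0.05), in 1 model of 4 genotypes over 12 libraries, since the deposited values are no counts and a count test cannot be run. P-values measure the spread between libraries labelled biological replicates. The code was tested on simulated data. Same-numbered *Ago2* KO and *Ago2* KO/CLIPΔ libraries deviated together (r = 0.32 to 0.433, 4 pairs), as did WT and CLIPΔ (r = 0.715, 2 pairs with the same value by construction), but not WT and *Ago2* KO (-0.154 to 0.06). Alternatives were the pseudocount, filter, centring, trend, block, libraries left out, peak filters, and window size.

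Members, gene lists, and tests were chosen with earlier results of these data known. Genes were named by rule: *Ago2*, *Cdkn1a*, *Nanog*, and *Trim71*, genes with at least 3 peaks, the 5 peaks with most reads per location, up to 5 highest and 5 lowest called bound genes per comparison, and bound members of the function lists. Other names were picked after their values were seen. The small-RNA-seq was not used here. Results on some items are not reported here.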

Additional observations from a re-analysis of the deposited data

How the results depend on the processing

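Among bound genes, the count called in *Ago2* KO against WT was 114 and ran from 80 (compared groups alone with the replicate block) to 119 (compared groups alone) under all alternatives. Leaving out a library gave 84 to 116 calls, the lowest without WT replicate 1. In CLIPΔ against WT, 4 genes were called, 0 with the compared groups alone, and 0 with only replicates 1 and 2 or only replicates 3 and 4 of the cells without *Ago2*. Leaving out a library gave 1 to 5 (1 without WT replicate 1, 2 without CLIPΔ replicate 1). In *Ago2* KO/CLIPΔ against *Ago2* KO, 0 were called, 1 with the compared groups alone, and 9 with the compared groups alone and the replicate block, and leaving out a library gave 0. The interaction had 0 calls, and 0 to 1 when a library was left out (1 without CLIPΔ replicate 2, and 1 without WT replicate 2). The replicate block over all 12 libraries gave 117, 4, 0, and 0 bound genes for *Ago2* KO against WT, CLIPΔ against WT, *Ago2* KO/CLIPΔ against *Ago2* KO, and the interaction, and among the named genes it ended only the call of *Pcif1* (0.38, adjusted p = 0.0565). Without the genes bound only over small RNA genes, 105, 4, 0, and 0 were called. This alternative and the block in the compared groups alone were chosen after seeing the data.

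The share of 3'UTR peaks (72.6% to 77.8%), the median reads per location, the WT level of bound genes (56.5 to 60.02 TPM), and GC content moved by less than their spread. With windows of 100 nt in place of 50, the folding energy was -18.2 kcal/mol in the 3'UTR, -18.1 in the CDS, and -21.0 in the 5'UTR, as longer windows hold more pairs. Limits are the 2 WT libraries, unknown RNA-seq depth, and 1 read count per peak.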
